A study of Homo sapiens with 12 samples.

Results

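The AP-1 transcription factor genes were described in 2 established cholangiocarcinoma cell lines, as the 9 genes FOS, FOSB, FOSL1, FOSL2, JUN, JUNB, JUND, ATF3 and BATF3 out of the 60651 genes in the count table. The genes were chosen by symbol, and each symbol was matched to 1 Ensembl identifier in the table. EGI-1 cells received vehicle (DMSO), decitabine at 0.5 µM, talazoparib at 200 nM or both drugs, and HUCCT1 cells received vehicle or decitabine at 1 µM. Cells of both lines are labelled wild type and were harvested for RNA at 72 h, with 2 libraries in each of the 6 groups and 12 in all. The study asked which transcripts change when decitabine, a nucleoside inhibitor of DNA methyltransferases, is combined with talazoparib, an inhibitor of PARP. HUCCT1 was grown in RPMI1640 and sequenced in lane L3, whereas EGI-1 was grown in DMEM and sequenced in lane L4, so line, medium and lane cannot be told apart. Library names for talazoparib carry a 50, whereas the labels state 200 nM. No label says that the libraries of a group came from separate cultures, so the p-values measure only the spread between these libraries, which may be technical.

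AP-1 is a dimer of basic leucine zipper proteins that binds DNA. The Fos proteins (FOS, FOSB, FOSL1 and FOSL2) cannot pair with themselves and bind DNA with a Jun partner (JUN, JUNB or JUND), while ATF3 and BATF3 are smaller relatives that pair with Jun proteins as well. FOS, FOSB, JUN, JUNB and ATF3 are immediate-early genes, transcribed within minutes of growth factor or stress signals through MAP kinases, and FOSL1 and FOSL2 are slower targets of the same signals in epithelial tumours.

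In HUCCT1 cells treated with decitabine, the Fos genes moved in opposite directions, with FOS, FOSB and FOSL1 lower and FOSL2 higher than in vehicle, and ATF3 and BATF3 were higher. In EGI-1 cells none of the 9 genes passed the test with decitabine alone. FOSL1 was 1.23-fold higher with talazoparib and 1.19-fold higher with the combination, and FOSL2 was 1.23-fold higher with the combination. FOS had the largest difference from vehicle of the 9 genes in EGI-1, a 2.85-fold lower level with the combination, but its replicates were far apart and it did not pass the test. The 8 EGI-1 libraries held 23139065 to 33181930 counts each and the 4 HUCCT1 libraries 32519985 to 34965627. All 8 markers of biliary epithelium had at least 10 counts in every library of both lines, and their summed level was at least 8709 CPM. Of 5 hepatocyte markers 1 reached that count in every library, and ALB, TTR and CYP3A4 had at most 3 counts in any. Among 6 fibroblast markers 1 reached it in every EGI-1 library and 3 in every HUCCT1 library, and among 4 endothelial markers 3 and 2 did. The 5 leukocyte markers summed to at most 1.81 CPM in EGI-1 outside the combination, but to 21.2 CPM in combination replicate 2. That library held 381 counts of PTPRC and 148 of CD3E, against at most 7 and 4 in the other EGI-1 libraries. Results for the combination include this library unless stated otherwise. As these are bulk libraries, fewer cells of a type and less RNA per cell cannot be told apart.

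The bases upstream of 3 members are shown because FOS and FOSB were lower together in HUCCT1 and had like patterns in EGI-1, while JUN, an immediate-early partner, did not pass the test in either line. The FOS stretch is chr14:75278578-75278825 on the plus strand, that of FOSB is chr19:45467746-45467994 on the plus strand, and that of JUN is chr1:58784049-58784297 on the minus strand, all in GRCh38. Each is written 5′ to 3′ and ends just before the first base of the gene in GENCODE. Capitals mark TGACGT, the core of a cyclic AMP response element, TGACATCA, a site of the form TGACNTCA, and TATAAA, the TATA box.
FOS: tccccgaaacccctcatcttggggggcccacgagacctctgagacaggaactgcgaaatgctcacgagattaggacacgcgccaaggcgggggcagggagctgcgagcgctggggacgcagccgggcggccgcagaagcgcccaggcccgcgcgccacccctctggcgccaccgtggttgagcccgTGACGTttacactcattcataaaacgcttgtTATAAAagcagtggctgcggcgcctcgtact
FOSB: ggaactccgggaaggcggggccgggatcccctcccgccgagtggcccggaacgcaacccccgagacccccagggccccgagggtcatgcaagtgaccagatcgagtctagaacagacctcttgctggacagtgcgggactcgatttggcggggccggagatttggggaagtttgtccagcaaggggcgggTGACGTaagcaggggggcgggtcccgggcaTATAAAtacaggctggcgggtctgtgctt
JUN: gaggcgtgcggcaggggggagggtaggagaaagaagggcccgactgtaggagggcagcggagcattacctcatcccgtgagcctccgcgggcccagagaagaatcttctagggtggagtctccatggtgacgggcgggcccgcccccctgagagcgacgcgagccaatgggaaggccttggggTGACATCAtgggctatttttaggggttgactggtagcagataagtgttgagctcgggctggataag
The sequences come from RefSeq windows on GRCh38.p14 that run from 250 bases before to 50 bases after a gene start. Such windows were found for 7 of the 9 members, with 2 for ATF3 and so 8 windows in all, and not for FOSL1 or BATF3. FOS and FOSB shared an arrangement, with TGACGT from position -64 to -59 in FOS and from -60 to -55 in FOSB, and TATAAA from -33 to -28 in FOS and from -30 to -25 in FOSB, counted back from the RefSeq start with the base before it as -1. The printed stretches end at the GENCODE gene, 2 bases short of the RefSeq start in FOS and 1 base short in FOSB and JUN. JUN held TGACATCA from -67 to -60, and the first ATF3 window held the same letters from -123 to -116. JUND held TGACGTCA from -200 to -193, a match that also contains TGACGT on both strands, and a further TGACGT on the minus strand from -87 to -82. FOSL2 held TGACGT from -66 to -61. JUNB held TATAAA from -31 to -26 and neither of the other motifs marked here. Both strands were searched in 35116 windows of 300 bases, of which 7.98% held TGACGT, 7.72% held TGACNTCA and 11.5% held TATAAA. The pattern TGANTCA, with any base at N, was in 7.71% of windows and in 1 of the 8 member windows, just downstream of the FOSL2 start. It is broader than the classical AP-1 site, whose own share of windows was not computed. The FOSL2 match read TGACTCA. The CArG box, to which serum response factor binds, was in 1.29% of windows and in 0 of the 8. Bases further upstream than these windows were not searched, so a site there would be missed. CpG dinucleotides, at which DNA methyltransferases act, numbered 30 in the FOS window, 23 in FOSB, 29 in FOSL2, 16 in JUN, 29 in JUNB and 49 in JUND. The 2 windows of ATF3 held 4 and 1. ATF3 has 10 transcripts in GENCODE, and starts outside these 2 windows were not examined. The median over all windows was 14, with quartiles of 4 and 28. No methylation was analysed here.

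Levels of different genes were compared as CPM per kilobase of merged exons, where CPM is the count scaled to library size with TMM factors. FOSL1, the Fos gene that marks RAS and MAP kinase signalling in many carcinomas, had the highest level per kilobase in all 6 groups, followed by JUND, which is expressed in most resting cells, and BATF3 had the lowest. In EGI-1 vehicle, FOSL1 stood at 130 ± 0.80 CPM per kilobase (SD, n = 2 libraries, as for all SDs that follow), and JUND at 78.2 ± 0.31. JUNB followed at 52.5 ± 3.3, FOS at 43.6 ± 8.7, JUN at 41.8 ± 1.3 and FOSL2 at 31.4 ± 0.07 CPM per kilobase. Of these neighbours, FOS lay within the summed SDs of both JUNB and JUN, and FOSL2 lay below JUN by more than their summed SDs. FOSB at 13.1 ± 3.7, ATF3 at 4.91 ± 0.72 and BATF3 at 0.871 ± 0.075 CPM per kilobase were well separated from each other.

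In HUCCT1 vehicle the distance between FOSL1 and the rest was wider, with FOSL1 at 376 ± 43.5 CPM per kilobase and JUND at 96.6 ± 18.3. JUNB at 59.97 ± 11.4, FOSL2 at 53.4 ± 6.5 and JUN at 51.4 ± 3.8 CPM per kilobase did not differ beyond their SDs. FOS stood at 33.5 ± 1.6, FOSB at 9.04 ± 1.18, ATF3 at 6.06 ± 0.19 and BATF3 at 0.0900 ± 0.0365 CPM per kilobase. Summed over the 9 genes, HUCCT1 vehicle libraries reached 625 and 747 CPM per kilobase, against 383 and 409 in EGI-1 vehicle. Decitabine libraries of HUCCT1 had sums of 522 and 593, below both vehicle libraries, and the EGI-1 sums stayed between 360 and 414 in all 8 libraries.

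FOSL1 made up 32.8% ± 1.3 of this summed level in EGI-1 vehicle, 42.5% ± 3.3 with talazoparib and 40.8% ± 0.9 with the combination. FOS made up 10.98% ± 1.68 in EGI-1 vehicle, 4.92% ± 1.54 with talazoparib and 4.01% ± 1.11 with the combination. In HUCCT1 the FOSL1 share was 54.8% ± 0.5 in vehicle and 38.5% ± 2.0 with decitabine, while the FOSL2 share was 7.78% ± 0.02 and 16.3% ± 0.9. These were the largest changes of share among the 9 genes in HUCCT1. The 4 Fos genes together made up 68.9% ± 0.9 of the sum in HUCCT1 vehicle and 57.6% ± 3.0 with decitabine, and the 3 Jun genes 30.2% ± 1.1 and 40.5% ± 3.2. In EGI-1 the Fos share stayed between 55.0% and 58.6% as a group mean in all 4 groups. Shares depend on the length taken for a gene, and with the longest transcript in place of merged exons FOS made up 14.6% and JUNB 11.7% in EGI-1 vehicle, so that FOS ranked above JUNB.

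**Figure D1:**
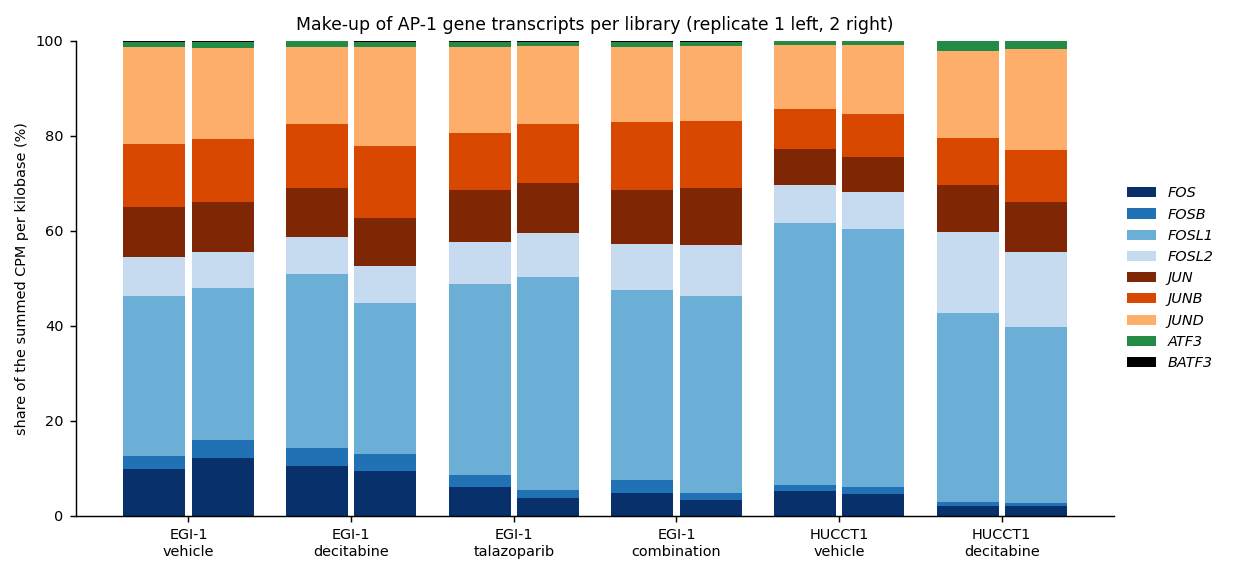
Share of each gene (%) in the summed CPM per kilobase of the 9 AP-1 genes, 1 bar per library with replicate 1 on the left of each group. FOSL1 takes 32.8% on average in EGI-1 vehicle and 54.8% in HUCCT1 vehicle, and in HUCCT1 with decitabine the FOSL2 segment is wider and the FOSL1 segment narrower than in vehicle.

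The lines were compared with vehicle alone to set the starting levels. Among 25096 genes tested in all 12 libraries, 55.8% passed and 4 of the 9 members did. Here and below, a gene passed at an adjusted p below 0.05 from edgeR's quasi-likelihood test, adjusted by the method of Benjamini and Hochberg over all genes tested. FOSL1 was 2.90-fold higher in HUCCT1 (log2 difference 1.53 with a standard error, SE, of 0.084, adjusted p = 1.0e-12). FOSL2 was 1.70-fold higher (log2 difference 0.77, SE 0.077, adjusted p = 2.4e-08). JUN was 1.23-fold higher (log2 difference 0.30, SE 0.087, adjusted p = 0.0060) and passed in 15 of 19 alternative settings, not among them those without HUCCT1 vehicle replicate 2 (log2 difference 0.22) or EGI-1 vehicle replicate 1 (log2 difference 0.25). BATF3, a factor best known from dendritic cells, was 9.52-fold lower in HUCCT1 (log2 difference -3.25, SE 0.35, adjusted p = 6.0e-08), with 5 and 9 counts in the HUCCT1 vehicle libraries. FOS had a log2 difference of -0.38 (SE 0.31, adjusted p = 0.35), and its HUCCT1 vehicle libraries lay below its EGI-1 vehicle libraries. The share of members that passed was below that of all genes.

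Decitabine in HUCCT1 moved 6 of the 9 members past the threshold, 3 higher and 3 lower, where 33.5% of 22479 genes passed, 19.6% higher and 13.9% lower. The count is thus above the background, and its split between directions is even. The 6 calls held in all 10 alternative settings, among them each of the 4 libraries left out in turn. Markers of other cell types moved with decitabine in HUCCT1 too. Summed fibroblast markers stood at 32.6 to 33.4 CPM in vehicle and 156 to 180 CPM with decitabine, and endothelial markers at 3.66 to 4.90 and 24.0 to 24.7 CPM. Hepatocyte markers stood at 45.5 to 69.5 and 88.1 to 98.2 CPM, leukocyte markers at 0.429 to 0.531 and 1.28 to 1.45 CPM, and biliary markers at 13233 to 14354 and 8709 to 9778 CPM. COL1A1 held 805 and 896 counts in vehicle and 5089 and 5611 with decitabine. SERPINA1 held 2350 and 1590 against 3381 and 2862, and CDH5 11 and 6 against 269 and 226. LUM went the other way, with 313 and 221 against 150 and 114. COL3A1 had at most 2 counts, ALB at most 1 and TTR 0 in each of these libraries. The part of the markers in the AP-1 values was not tested. FOS, the founding Fos gene, had 103 and 110 CPM in vehicle and 34.97 and 38.4 CPM with decitabine. Both treated libraries were far below both vehicle libraries, a 2.93-fold fall (log2 fold change -1.55, SE 0.11, adjusted p = 4.5e-11). FOSB, its close paralog, had 45.6 and 54.8 CPM in vehicle and 21.1 and 22.6 CPM with decitabine. It fell 2.31-fold (log2 fold change -1.21, SE 0.12, adjusted p = 2.3e-08), again without overlap between the groups. FOSL1 had 652 and 768 CPM in vehicle and 393 and 415 CPM with decitabine. Its fall of 1.77-fold (log2 fold change -0.82, SE 0.11, adjusted p = 1.2e-06) was the smallest of the 3 in proportion and the largest in CPM.

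FOSL2, which in epithelia often shares targets with FOSL1, had 349 and 415 CPM in HUCCT1 vehicle and 633 and 666 CPM with decitabine. It rose 1.69-fold (log2 fold change 0.76, SE 0.11, adjusted p = 4.8e-06), and with decitabine it stood at 90.7 ± 3.3 CPM per kilobase, against 214 ± 8.3 for FOSL1. ATF3, a stress-induced factor that can repress as a homodimer, had 24.8 and 23.7 CPM in vehicle and 41.2 and 40.3 CPM with decitabine. Its replicates lay close together in both groups, and it rose 1.67-fold (log2 fold change 0.74, SE 0.12, adjusted p = 2.1e-05). BATF3 had 0.165 and 0.298 CPM in vehicle, from 5 and 9 counts, and 1.97 and 1.86 CPM with decitabine, from 63 and 55 counts. It rose 8.10-fold (log2 fold change 3.02, SE 0.42, adjusted p = 3.1e-06) from a level near the floor to one below 2 CPM.

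The 3 Jun genes did not pass in HUCCT1, although JUN and JUND passed with a replicate block by title number (adjusted p = 0.030 and 0.011) and JUND without vehicle replicate 2 (adjusted p = 0.041). JUN had 176 and 196 CPM in vehicle and 190 and 229 CPM with decitabine (log2 fold change 0.16, SE 0.11, adjusted p = 0.29). JUNB had 95.04 and 124 CPM in vehicle and 94.6 and 118 CPM with decitabine (log2 fold change -0.05, SE 0.13, adjusted p = 0.79). JUND had 161.4 and 211 CPM in vehicle and 184 and 242 CPM with decitabine (log2 fold change 0.18, SE 0.13, adjusted p = 0.31). For each of them the libraries of both groups overlapped, while JUN and JUND were higher with decitabine within each replicate number, and both decitabine libraries differed from each other by more than the group means did. JUNB carries a limit of its own, since 259 of its exon bases lie opposite exons of HOOK2, a gene with 1026 to 1552 counts, and whether the counting used the strand is not stated.

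**Figure D2:**
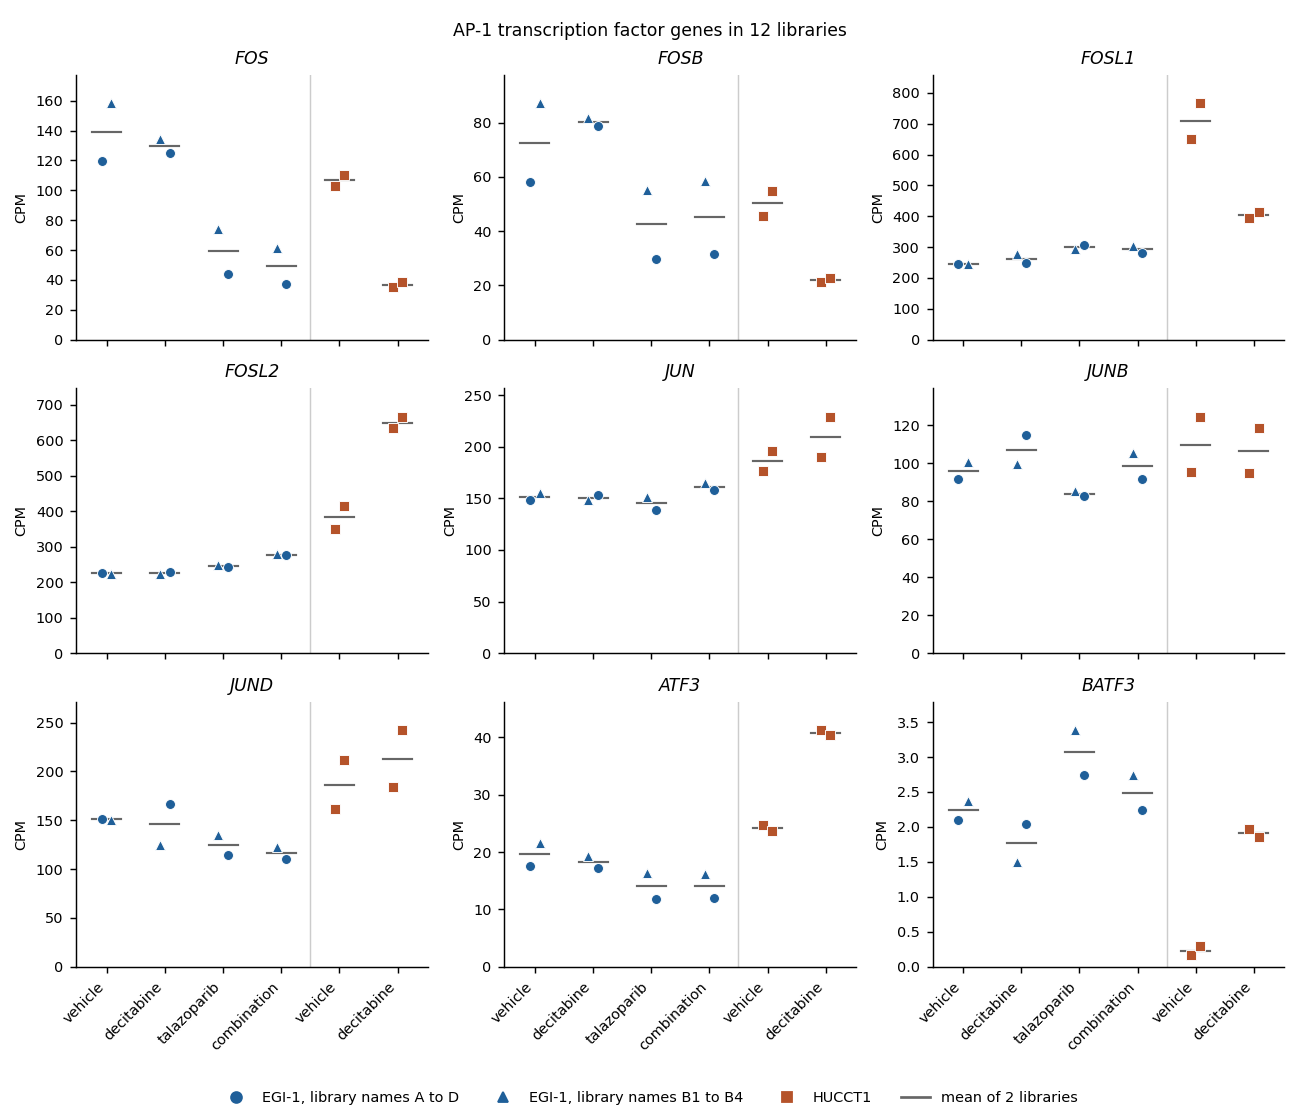
CPM of each of the 9 genes in the 12 libraries, by group, with a linear axis from 0 for each gene. Points are libraries, with circles and triangles for both series of EGI-1 library names and squares for HUCCT1, and grey lines are means of 2 libraries. FOS falls from a mean of 107 to 36.7 CPM in HUCCT1 with decitabine, and in EGI-1 its libraries with talazoparib and with the combination lie between 36.9 and 74.0 CPM.

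Decitabine alone in EGI-1 gave 0 of 9 members past the threshold, where 0.544% of 22406 genes passed, and DESeq2 also gave 0. None of the 9 had an unadjusted p under 0.05, against 9.14% of all genes, and their log2 fold changes ran from -0.33 in BATF3 to 0.16 in JUNB. FOS had 120 and 159 CPM in vehicle and 135 and 125 CPM with decitabine (log2 fold change -0.09, SE 0.37), so that both treated libraries lay between the vehicle libraries. FOSB behaved alike, with 58.0 and 87.2 CPM in vehicle and 81.8 and 78.7 CPM with decitabine (log2 fold change 0.15, SE 0.46).

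Talazoparib alone in EGI-1 gave 1 of 9 members past the threshold, where 4.12% of genes passed, 2.83% higher and 1.29% lower. FOSL1 had 244 and 246 CPM in vehicle and 293 and 307 CPM with talazoparib. Both treated libraries were above both vehicle libraries, a rise of 1.23-fold (log2 fold change 0.30, SE 0.064, adjusted p = 0.010). The call was lost when vehicle replicate 1, vehicle replicate 2 or talazoparib replicate 2 was left out, with log2 fold changes of 0.26 to 0.30 in those fits. FOS had 74.0 and 44.3 CPM with talazoparib, both under the lower vehicle library at 120 CPM. Its log2 fold change of -1.24 (SE 0.38) had an unadjusted p of 0.029 and an adjusted p of 0.24. FOSB had 55.2 and 29.8 CPM with talazoparib, against 58.0 in the lower vehicle library (log2 fold change -0.78, SE 0.47, adjusted p = 0.55). ATF3 had 17.6 and 21.7 CPM in vehicle and 16.3 and 11.8 CPM with talazoparib (log2 fold change -0.49, SE 0.17, adjusted p = 0.18). For all 3 genes the groups did not overlap, and the share of all genes without overlap was not computed. Their treated libraries differed from each other by a larger factor than those of FOSL1 did. With a replicate block by library-name series, described below, FOS (adjusted p = 0.0034) and ATF3 (adjusted p = 0.022) passed.

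The 3 Jun genes and FOSL2 had smaller differences from vehicle with talazoparib than FOSL1. JUNB had a log2 fold change of -0.19 (SE 0.081, adjusted p = 0.24), JUND of -0.28 (SE 0.14, adjusted p = 0.39, passing in 4 of 16 settings) and JUN of -0.06 (SE 0.063, adjusted p = 0.72). FOSL2 stood at 247 and 244 CPM against 225 and 224 CPM in vehicle, a log2 fold change of 0.13 with an adjusted p of 0.22. BATF3 had a larger difference that did not pass, at 3.38 and 2.75 CPM against 2.10 and 2.37 CPM (log2 fold change 0.45, SE 0.23, adjusted p = 0.35). Of the 9 members, 5 had an unadjusted p under 0.05 with talazoparib, as did 15.9% of all genes tested.

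The combination in EGI-1 gave 2 of 9 members past the threshold, both higher, where 18.7% of genes passed, 11.1% higher and 7.61% lower. Their share was close to the background, and a further 3 members had an unadjusted p under 0.05, for 5 in all against 30.9% of genes. FOSL2 had 279 and 275 CPM with the combination, against 225 and 224 CPM in vehicle. It rose 1.23-fold with replicates that nearly coincided (log2 fold change 0.30, SE 0.054, adjusted p = 0.00078), and the call held in all 16 alternative settings. FOSL1 had 305 and 281 CPM with the combination and rose 1.19-fold (log2 fold change 0.25, SE 0.064, adjusted p = 0.0099). That call held in 13 of 16 settings and was lost without vehicle replicate 1, vehicle replicate 2 or combination replicate 1, with log2 fold changes of 0.19 to 0.26. Both genes passed without combination replicate 2 (log2 fold changes 0.31 and 0.31).

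FOS had 61.5 and 36.9 CPM with the combination, both under the lower vehicle library at 120 CPM. Its log2 fold change was -1.51 (SE 0.39, adjusted p = 0.073). The result changed with the treatment of spread, since FOS passed with DESeq2 (adjusted p = 0.0014) and with a quasi-likelihood fit without robust estimation (adjusted p = 0.00041), a setting chosen after the data were seen. The same 2 settings gave adjusted p-values of 0.030 and 0.0058 for talazoparib. FOS also passed with a replicate block by library-name series (adjusted p = 0.00031). FOSB had 58.6 and 31.6 CPM with the combination, so that 1 treated library reached the lower vehicle library (log2 fold change -0.70, SE 0.47, adjusted p = 0.41). FOSB passed in none of the 16 settings for either talazoparib or the combination. ATF3 had 16.1 and 11.95 CPM (log2 fold change -0.50, SE 0.17, adjusted p = 0.071) and passed in 8 of 16 settings, the same block among them (adjusted p = 0.0058). JUND had 122.98 and 110 CPM against 151 and 151 CPM in vehicle (log2 fold change -0.38, SE 0.14, adjusted p = 0.10) and passed in 5 of 16. In FOS, FOSB, ATF3 and JUND the lower value came from combination replicate 2, the library with leukocyte transcripts. Within the library names B1 to B4, which lack that library, their log2 fold changes were -1.37, -0.57, -0.42 and -0.29, 1 library against 1.

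JUN, JUNB and BATF3 lay near vehicle with the combination. JUN stood at 165 and 158 CPM against 148 and 155 CPM (log2 fold change 0.08, SE 0.063, adjusted p = 0.41). JUNB stood at 105 and 91.8 CPM, overlapping the vehicle libraries at 91.8 and 100 CPM (log2 fold change 0.03, SE 0.081, adjusted p = 0.86). BATF3 stood at 2.74 and 2.24 CPM (log2 fold change 0.14, SE 0.23, adjusted p = 0.74), also overlapping vehicle.

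**Figure D3:**
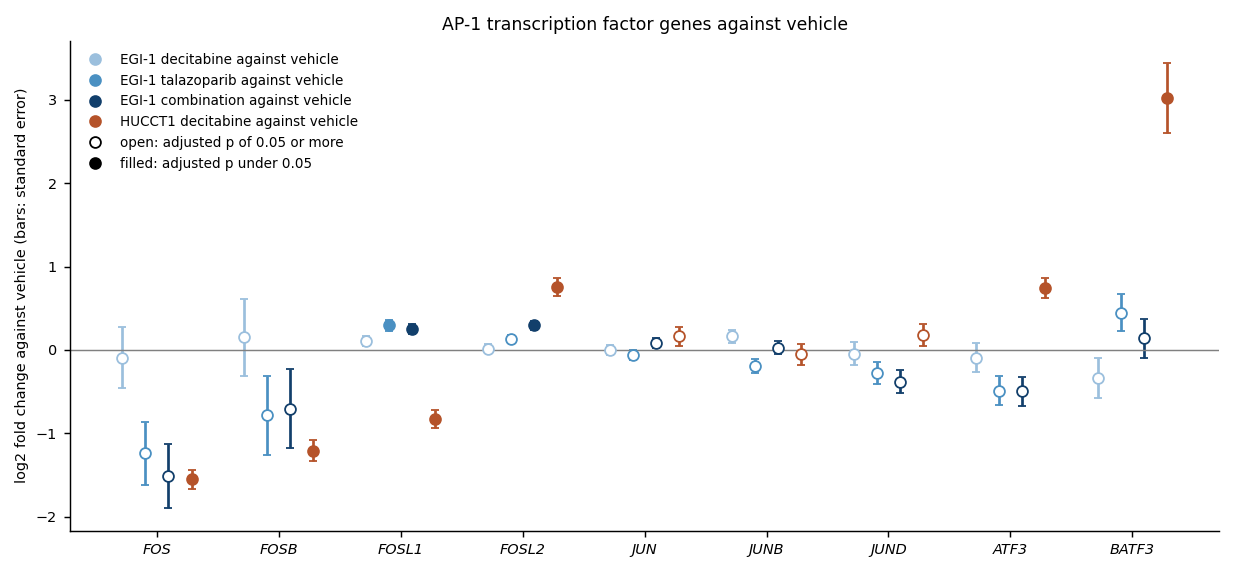
Log2 fold change of each gene against vehicle in 4 comparisons, with bars for the SE and filled points for an adjusted p below 0.05 by edgeR. In HUCCT1 6 genes are filled, from -1.55 in FOS to 3.02 in BATF3, whereas in EGI-1 the filled points are FOSL1 with talazoparib and FOSL1 and FOSL2 with the combination.

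The combination was also set against each drug alone. Against decitabine alone 1 of 9 members passed, where 7.68% of genes did. FOSL2 had 224 and 228 CPM with decitabine and was 1.21-fold higher with the combination (log2 fold change 0.28, SE 0.054, adjusted p = 0.0030), a call that held in all 16 settings. FOS had a log2 fold change of -1.42 (SE 0.39, adjusted p = 0.14), and an adjusted p of 0.0011 with the block by library-name series. Against talazoparib alone 0 of 9 members passed, where 1.92% of genes did, DESeq2 gave 0 as well, and 3 members had an unadjusted p under 0.05, against 13.3% of genes. These were FOSL2 (log2 fold change 0.17, adjusted p = 0.15), JUNB and JUN, and FOSL2 passed when decitabine replicate 1 or 2 was left out of the fit. Whether the combination departed from the summed effects of decitabine and talazoparib was tested on the log2 scale, and 0.161% of genes passed. Again 0 of 9 members passed, 0 had an unadjusted p under 0.05, against 3.38% of genes, and DESeq2 gave 0, with departures from -0.18 in FOS to 0.15 in FOSL2.

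The effect of decitabine was set between the lines, where doses of 1 µM and 0.5 µM mean that line and dose cannot be told apart. The difference between the effects passed in 15.9% of 25096 genes and in 4 of the 9 members. FOSL1 had a log2 fold change of -0.82 in HUCCT1 and 0.11 in EGI-1, and the difference of -0.91 passed (SE 0.12, adjusted p = 8.2e-06). FOSL2 had log2 fold changes of 0.76 and 0.02, with a difference of 0.76 (SE 0.11, adjusted p = 4.0e-05). ATF3 had log2 fold changes of 0.74 and -0.09, with a difference of 0.85 (SE 0.20, adjusted p = 0.0062) that did not pass without EGI-1 vehicle replicate 2 (0.69, adjusted p = 0.058). BATF3 had log2 fold changes of 3.02 and -0.33, with a difference of 3.37 (SE 0.44, adjusted p = 1.3e-05). For FOS the effects of -1.55 and -0.09 differed by -1.44 in the joint fit (SE 0.45, adjusted p = 0.085), and for FOSB by -1.34 (SE 0.57, adjusted p = 0.19), and neither passed. FOS passed in 7 of 19 alternative settings and FOSB in 2. The spread of both genes between EGI-1 libraries enters these SEs.

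The spread of FOS, FOSB and ATF3 in EGI-1 followed the library names. Each EGI-1 group holds 1 library of a series named A to D and 1 of a series named B1 to B4, and the labels do not say what the series mark. FOS was higher in the B1 to B4 library of all 4 groups, by 0.11 to 0.74 on the log2 scale, FOSB by 0.055 to 0.89 and ATF3 by 0.17 to 0.46. Of 13708 genes that averaged 1 log2 CPM or more, 3.84% were higher in that series in all 4 groups, and the median difference between both libraries of a group, without its sign, was 0.065 to 0.13. FOSL2 differed by at most 0.026 between the series in any group. Within the A to D series, 1 library against 1, FOS had a log2 fold change of -1.43 with talazoparib and -1.69 with the combination. Within the B1 to B4 series the values were -1.10 and -1.37. FOSB had -0.96 and -0.88 within A to D, and -0.66 and -0.57 within B1 to B4. The direction was thus the same in both series for both genes, in values computed after the data were seen. The replicate block by series tests such within-series changes, and with it FOS and ATF3 passed with both treatments while FOSB did not (adjusted p = 0.23 with talazoparib and 0.12 with the combination). Over all genes, deviations of libraries of 1 series correlated by -0.27 to 0.20 between groups. These values show no common pairing by series but cannot exclude one.

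**Figure D4:**
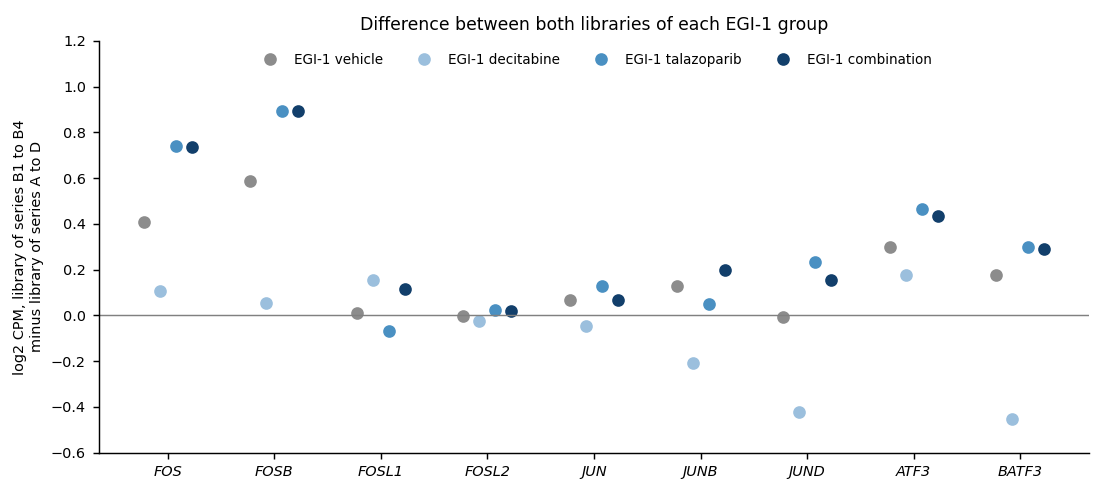
Log2 CPM in the library of the series B1 to B4 minus that of the series A to D, for each gene, with 1 point per EGI-1 group and 0 marked by a line. FOS, FOSB and ATF3 lie above 0 in all 4 groups, up to 0.89 in FOSB, and FOSL2 stays within 0.026 of 0.

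The genes most like FOS across the 8 EGI-1 libraries were found by Pearson's r of log2 CPM among 13708 genes, as a description over libraries that share groups and series. ENSG00000284747 had r = 0.99, USF2 had r = 0.98, and NRDE2, RNF216P1 and ALDH1A3-AS1 had r = 0.97. Among the members, ATF3 followed FOS most closely with r = 0.95, at rank 27 of all genes, and FOSB had r = 0.93 at rank 43. JUND had r = 0.81, whereas FOSL1 had r = -0.74 and FOSL2 r = -0.84, so the late Fos genes ran opposite to FOS over these libraries.

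The genes around AP-1 were read from 5 lists. The AP-1 target list holds 46 genes known as AP-1 targets, of which 41 were tested in EGI-1. With the combination 27 were higher and 3 lower, where 11.1% of all genes were higher and 7.61% lower, and the median log2 fold change was 0.56 against -0.02 over all genes tested. Talazoparib gave 18 higher and 3 lower with a median of 0.30, where 2.83% of all genes were higher and 1.29% lower. Decitabine gave 7 higher and 0 lower with a median of 0.19, where 0.544% of all genes passed. In HUCCT1, 40 were tested and decitabine gave 24 higher and 6 lower, where 19.6% of all genes were higher and 13.9% lower, with a median of 0.50 against 0.0020 over all genes. Without combination replicate 2, the library with leukocyte transcripts, the median log2 fold change of the list with the combination was 0.55. With the combination in EGI-1, IL11, a cytokine of the interleukin-6 family, rose from 6.74 ± 0.19 to 29.4 ± 1.1 CPM and KRT17, a stress keratin, from 11.3 ± 1.6 to 35.9 ± 1.0 CPM (log2 fold changes 2.11 and 1.66). In HUCCT1 with decitabine the chemokine genes CXCL8 and CCL2 rose from 18.3 ± 1.4 to 857 ± 101 CPM and from 3.38 ± 0.59 to 131 ± 9.8 CPM. IL6 rose there from 7.496 ± 1.183 to 220 ± 22.3 CPM (log2 fold change 4.86, SE 0.14, adjusted p = 4.9e-19). These targets also respond to other factors such as NF-κB, and binding of AP-1 was not measured here.

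The feedback inhibitors of MAP kinases, which are induced by the same signals, numbered 20, and 16 were tested in EGI-1. With the combination 7 were higher and 1 lower, where 18.7% of all genes passed, with a median log2 fold change of 0.11. Without combination replicate 2 the median was also 0.11. In HUCCT1 9 of 19 were higher and 4 lower, where 33.5% of all genes passed, with a median of 0.30. DUSP5, a phosphatase of ERK, rose from 141 ± 1.5 to 267 ± 5.8 CPM in EGI-1 with the combination (log2 fold change 0.91, SE 0.076, adjusted p = 3.2e-07). It rose from 86.9 ± 3.1 to 232 ± 9.96 CPM in HUCCT1 with decitabine (log2 fold change 1.41, SE 0.11, adjusted p = 1.3e-10). SPRY4 and DUSP10 rose by log2 fold changes of 0.52 and 0.45 in EGI-1. In HUCCT1 DUSP1, itself an immediate-early gene, rose from 63.5 ± 7.4 to 174 ± 9.9 CPM, and DUSP9 from 0.314 ± 0.024 to 4.06 ± 0.75 CPM.

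Other immediate-early genes, 27 of 28 tested, were higher in 8 and lower in 4 cases with the combination in EGI-1 (median log2 fold change 0.14 against -0.02 over all genes, of which 18.7% passed). Without combination replicate 2, which leaves 1 combination library, the median was 0.02. In HUCCT1 they were higher in 13 and lower in 5 cases (median 0.35 against 0.0020 over all genes, of which 33.5% passed). In EGI-1 the leading genes were CCN1, a matricellular protein, from 353 ± 6.5 to 597 ± 5.7 CPM, IER5, with a log2 fold change of 0.55, and the nuclear receptor NR4A1, with 0.87. In HUCCT1 they were the kinase SGK1, from 18.5 ± 1.7 to 60.7 ± 1.3 CPM, MAFF, with a log2 fold change of 1.28, and CCN2, with 1.11. These 3 genes rose in the same HUCCT1 libraries in which FOS and FOSB fell, while 5 genes of the list were lower there. EGR1, chosen after its values were seen, had 211.2 and 247.9 CPM in HUCCT1 vehicle and 164.3 and 164.7 CPM with decitabine. IER2, chosen in the same way, had 29.0 and 32.0 CPM in HUCCT1 vehicle and 33.7 and 32.1 CPM with decitabine.

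The kinases and transcriptional regulators upstream of AP-1 were 38, all tested, and 3 were higher and 4 lower with the combination in EGI-1 (median log2 fold change -0.03). That is 18.4% of the list, beside 18.7% of all genes. Without combination replicate 2 the median was -0.06. In HUCCT1 4 were higher and 10 lower (median -0.16), or 36.8% of the list beside 33.5% of all genes, so the counts were near the background in both lines. MAP2K6 and MAP2K3, both kinases that activate p38, moved in opposite directions in EGI-1. MAP2K6 fell from 13.2 ± 1.0 to 4.97 ± 0.09 CPM (log2 fold change -1.42, SE 0.15, adjusted p = 4.6e-06), while MAP2K3 rose from 92.1 ± 1.3 to 134 ± 2.1 CPM (log2 fold change 0.53, SE 0.070, adjusted p = 3.7e-05). In HUCCT1 MAP2K3 rose from 129 ± 4.7 to 255 ± 9.4 CPM, and RPS6KA5, a kinase of histone H3 and CREB, fell by 0.83 on the log2 scale. MRTFB, a coactivator of serum response factor, fell in both lines, by 0.47 with the combination in EGI-1 and by 0.60 with decitabine in HUCCT1, on the log2 scale.

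Other basic leucine zipper genes, 30 in the list, were split in EGI-1, with 5 of 28 higher and 5 lower with the combination (median log2 fold change -0.06). Of all genes, 11.1% were higher and 7.61% lower. Without combination replicate 2 the median of the list was -0.0022. In HUCCT1 14 of 30 were higher and 1 lower with decitabine (median 0.23), where 19.6% of all genes were higher and 13.9% lower. ATF5 and BACH2 rose in EGI-1 by log2 fold changes of 0.52 and 0.84, and ATF4, the main factor of the integrated stress response, fell from 229 ± 4.0 to 188 ± 5.2 CPM. In HUCCT1 MAFF, a small Maf protein that also stands among the immediate-early genes, rose from 61.97 ± 4.61 to 152 ± 17.9 CPM. DDIT3, which encodes the stress factor CHOP, rose there from 10.8 ± 0.3 to 27.5 ± 0.6 CPM, and CEBPB from 53.9 ± 8.1 to 129 ± 29.5 CPM.

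**Figure D5:**
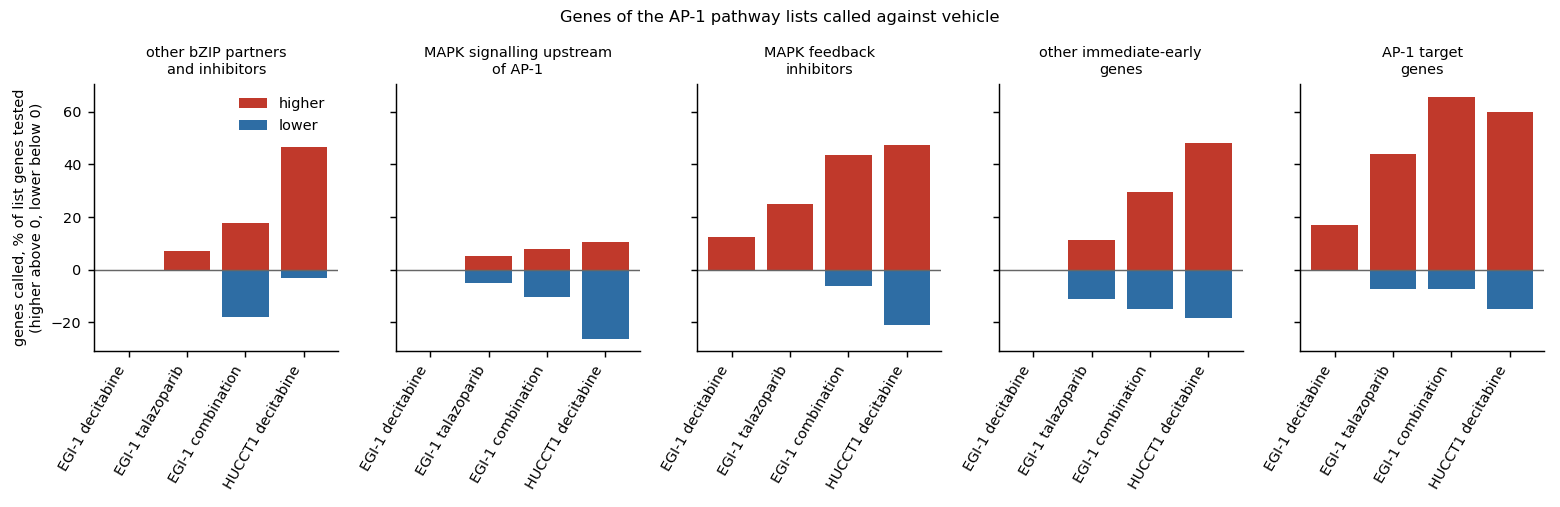
Genes of each list with an adjusted p below 0.05 by edgeR, in percent of the list genes tested, with higher genes above 0 and lower genes below 0, for 4 comparisons with vehicle. Bars are taller above than below 0 for the AP-1 targets in each comparison, with 27 higher and 3 lower genes of 41 in the combination.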

How the data were processed

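RNA-seq was measured in 12 libraries. The table that the authors deposited holds raw counts per gene, whole numbers without normalization. The submitters' processing notes name fastp, Trim Galore, HISAT2, featureCounts and GRCh38, whereas the methods name fastp, STAR and RSEM. The use of the strand and the annotation are not given in the sources used here, and the methods describe RNA-seq of EGI-1 alone.

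Symbols, positions and exon lengths came from GENCODE 44, which matched 60437 of 60651 identifiers. Genes were filtered with filterByExpr by group, scaled by TMM and fitted by robust quasi-likelihood in edgeR 4.0.16 (R 4.3.3), over 8 EGI-1 libraries, 4 HUCCT1 libraries or all 12 for comparisons between lines. Benjamini-Hochberg adjusted p-values under 0.05 over all genes tested were calls. All 9 members passed the filter in each fit. CPM were computed with TMM factors over 12 libraries. An exact two-sided permutation test of 2 against 2 libraries cannot give a p under 0.333. Scripts were tested on simulated data.

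Members and lists were chosen with earlier results of these data known. Besides all members, the text names, for each list, the 3 genes with the smallest adjusted p among calls averaging 1 log2 CPM or more, in the combination and in HUCCT1 decitabine, and the 5 genes most like FOS. A gene that this rule also names is not reported here. Alternatives were DESeq2 1.42.0, other factors, no filter, fewer groups, blocks and libraries left out.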

Additional observations from a re-analysis of the deposited data

Results flagged for a closer look

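The effect of decitabine differed between the lines in 4 members, by an interaction term in edgeR's quasi-likelihood fit over 12 libraries with Benjamini-Hochberg adjustment. The effect in HUCCT1 minus that in EGI-1, on the log2 scale, was -0.914 for FOSL1, 0.755 for FOSL2, 0.852 for ATF3 and 3.367 for BATF3. The values for FOSL1, FOSL2 and BATF3 passed in all 19 alternative settings and that of ATF3 in 18. In each of the 4 genes both HUCCT1 decitabine libraries lay on the same side of both HUCCT1 vehicle libraries. The genes were picked by a test on the same libraries, so this separation adds no support. The share of all genes that separate in this way was not computed. Decitabine doses, media and lanes differ between the lines and cannot be told apart from the line.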

How the results depend on the processing

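Directions and calls of the 9 genes were recomputed under 16 alternatives in EGI-1, 10 in HUCCT1 and 19 between the lines. With talazoparib, where 1 gene passed, DESeq2 and the fit without robust estimation gave 2, and no low-count filter and only the groups compared gave 3. Of all genes tested, DESeq2 called 628 higher and 278 lower of 14406, and the fit without robust estimation 551 and 261 of 22406. No filter called 860 and 429 of 40184, and only the groups compared 1133 and 718 of 21278. With the combination, where 2 passed, each of these 4 settings gave 4. Of all genes, DESeq2 then called 2125 higher and 1056 lower of 18197, and the fit without robust estimation 2402 and 1597 of 22406. No filter called 2720 and 1850 of 40184, and only the groups compared 3399 and 2400 of 21358. For the combination against decitabine, where 1 passed, DESeq2 and the non-robust fit gave 2 and no filter gave 3. Here DESeq2 called 897 higher and 600 lower of 13648 genes, the non-robust fit 913 and 660 of 22406, and no filter 1284 and 1021 of 40184. Between the vehicle groups, where 4 passed, no filter and only the groups compared gave 7. These settings called 7497 higher and 6800 lower of 44657 genes, and 6929 and 6861 of 22221. Leaving out 1 library in turn gave 0 to 2 genes with talazoparib, 1 to 3 with the combination, 1 to 3 against decitabine, where the 3 came without decitabine replicate 1, and 0 to 1 against talazoparib. In HUCCT1 it gave 6 or 7, as JUND passed without vehicle replicate 2. In EGI-1 the deviations of libraries with the same replicate number correlated by -0.27 to 0.20 between groups. These values show no common pairing by number but cannot exclude one. In HUCCT1 they correlated by 0.29. There a block by title number raised the genes called from 4404 to 5488 higher and from 3121 to 4648 lower. Variation shared within a replicate number thus remains possible in HUCCT1, and the labels do not state a pairing. A replicate block by title number gave 3 genes with the combination and 8 in HUCCT1, and a replicate block by library-name series gave 3 with talazoparib, 4 with the combination and 3 against decitabine. The former block added ATF3 with the combination and JUN and JUND in HUCCT1, and the latter FOS and ATF3 in EGI-1. Calls over all genes also changed with each library left out and each block, so these counts of members were not read against 1 background. Signs turned only in values that did not pass. Upper-quartile factors gave FOSL2 -0.014 with decitabine in EGI-1 and JUNB -0.0074 with the combination. Libraries left out gave, for EGI-1 decitabine, -0.29 to 0.12 in FOS, -0.12 to 0.47 in FOSB and -0.24 to 0.062 in ATF3. They gave JUN -0.13 to 0.0015 with talazoparib, JUNB -0.072 to 0.13 and BATF3 -0.0055 to 0.29 with the combination, and JUNB -0.24 to 0.13 and JUND -0.024 to 0.37 in HUCCT1. Library totals in place of TMM factors moved FOSL1 in vehicle from 245 to 259 CPM in EGI-1 and from 710 to 623 CPM in HUCCT1. Upper-quartile factors shifted the median of all genes between vehicle groups by -0.12 on the log2 scale. The causes were not tested. Values of 2 libraries a group, and BATF3 counts of 5 and 9 in HUCCT1 vehicle, limit the precision.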

Other observations

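EGR1, an immediate-early gene that encodes a zinc finger factor, had 102 and 83.5 CPM in EGI-1 vehicle. It had 56.7 and 77.8 CPM with talazoparib and 58.2 and 64.9 CPM with the combination. Neither of these groups overlapped vehicle, and the share of all genes without overlap was not computed. IER2 had 39.6 and 40.3 CPM in EGI-1 vehicle and 35.2 and 36.4 CPM with the combination. Both genes were chosen after their values were seen. Summed over the listed immediate-early genes other than AP-1, EGI-1 libraries lay between 2102 and 2389 CPM and HUCCT1 libraries between 4014 and 4597 CPM.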
